A study of Mus musculus with 6 samples.

Results

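This set of 5 genes carries signals from osteoblasts to osteoclasts. They are Tnfsf11, which encodes RANKL, Tnfrsf11b, which encodes osteoprotegerin (OPG), Tnfrsf11a, which encodes the receptor RANK, and the cytokine genes Csf1 and Il34. Probes were taken by name, as every array probe whose RefSeq transcript belongs to 1 of these genes, and this rule used no measured values. The genes themselves were chosen with earlier results of these data known. The rule found 7 probes for the 5 genes, 3 of them for Csf1, among 39429 probes and 20659 named genes on the array. The cells were primary mouse osteoblasts (PMOs) from the calvaria of CD1 newborns 2 to 5 days old, hybridized to 6 Agilent 1-colour arrays that hold oligonucleotide probes for mouse transcripts. Undifferentiated PMOs were grown to confluence in medium with serum and collected then (2 arrays). Differentiated PMOs were kept after confluence for 30 days in medium with ascorbic acid and beta-glycerol phosphate (2 arrays). The cabozantinib group was kept for 30 days in the same differentiation medium with 100 nM cabozantinib, an inhibitor of the tyrosine kinases MET and VEGFR2 (2 arrays). No label says whether the replicates came from separate cultures or litters, so p-values measure the spread between these arrays. The growth to confluence and the 30 days in culture mean that differentiated and undifferentiated PMOs also differ in culture time.

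RANKL is a membrane-bound or shed cytokine of the TNF family, made by cells of the osteoblast lineage. It binds RANK on myeloid precursors and drives them to become osteoclasts, the cells that resorb bone. OPG is a secreted decoy receptor that captures RANKL, so that the balance of both signals sets how much RANKL reaches its receptor. CSF1 and IL-34 are the 2 ligands of the receptor CSF1R, through which osteoclast precursors and macrophages survive and multiply. The comparisons address whether osteoblast differentiation and cabozantinib move these signals.

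Values are log2 signals minus the 75th percentile of the same array, so 0 marks a probe at that percentile and a difference of 1 is a 2-fold difference. Probes differ in how well they bind, so a level of a probe is compared between arrays, and levels of different probes do not rank their transcripts. Differences and sums over probes are read only by how they move between arrays. The scanner software called 58.8% to 72.9% of the spots of an array well above background, and no spot was saturated. Each of the 7 probes exceeded background clearly on all 6 arrays, so every member passed the filter on dim probes. The 75th percentile itself was 625 and 1773 signal units on undifferentiated replicates 1 and 2, 1095 and 649 on the differentiated ones, and 1277 and 961 on the cabozantinib ones. The undifferentiated and differentiated arrays shared a scan, and both cabozantinib arrays lay in another, so scan and cabozantinib cannot be told apart in any value below that compares the treated arrays.

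The label of the cells was set against marker genes first. The main limma fit takes the replicate number as a block, and fits that leave out 1 array in turn drop that block. A call lost without an array therefore compares fits that differ in both. Col1a1, the main collagen chain of bone, read 8.23 and 6.72 undifferentiated, 7.38 and 8.06 differentiated, and 7.35 and 7.64 with cabozantinib. All 10 osteoblast markers were tested, and with differentiation 2 rose, 1 fell and 7 did not pass. Bglap2, which encodes osteocalcin, rose by 5.06 (SE 0.50, limma adjusted p = 0.000473) after differentiation, and Dmp1, a matrix protein gene of osteocytes, by 3.99 (SE 0.58, limma adjusted p = 0.00277). Ibsp, which encodes bone sialoprotein, rose by 2.20 (SE 0.50, limma adjusted p = 0.0218, lost without differentiated replicate 2), and the osteocyte genes Phex and Mepe rose by 6.38 (limma adjusted p = 0.000264) and 2.44 (limma adjusted p = 0.0150). The other 3 of the 6 osteocyte markers did not pass: Sost, which encodes sclerostin, differed by -0.52, Fgf23 by -0.15 and Pdpn by -0.68. Spp1, which encodes osteopontin, fell by 3.67 (SE 0.91, limma adjusted p = 0.0317), a call lost without the replicate block (0.0546) and without 3 of the 6 arrays in turn. Pth1r, the receptor of parathyroid hormone, differed by -1.43 (limma adjusted p = 0.125). The transcription factor gene Runx2 was at least 1.46-fold lower (limma adjusted p = 0.0774), as its probe was not well above background on the differentiated arrays. Sp7, another osteoblast transcription factor gene, read -4.40 and -2.63 undifferentiated, -6.82 and -3.90 differentiated and -6.16 and -4.95 with cabozantinib. Its probe was not well above background on differentiated replicate 1 and cabozantinib replicate 1, and it was not called in either comparison. Cells of the macrophage lineage were also represented: 5 of 10 measured macrophage markers rose with differentiation and none fell. The other 5 did not pass, and among them the lysozyme gene Lyz2 differed by -1.28 with overlapping groups. The calls of Csf1r and of the Fc receptor gene Fcgr1 were lost without differentiated replicate 2. Adgre1, an antigen gene of macrophages, rose by 4.04 (SE 0.49, limma adjusted p = 0.00125), and the mannose receptor gene Mrc1 and the adaptor gene Tyrobp by 5.31 (limma adjusted p = 0.000488) and 3.13 (limma adjusted p = 0.00466). The summed macrophage signal, to which the Csf1r probe added the largest signal, was 48.8 and 27.1 times the array's 75th percentile in undifferentiated PMOs, 280 and 374 times in differentiated PMOs and 250 and 302 times with cabozantinib. Of the osteoclast markers, 3 of 9 rose with differentiation, among them Acp5, the tartrate-resistant phosphatase of osteoclasts and activated macrophages, by 3.34 (SE 0.56, limma adjusted p = 0.00487). Atp6v0d2, a proton pump subunit gene, rose by 5.28 (limma adjusted p = 0.000351) and Dcstamp, a cell fusion gene, by 2.31 (limma adjusted p = 0.0250, lost without differentiated replicate 2). Ctsk, the collagen-degrading cathepsin of osteoclasts, read 5.62 and 4.96, then 6.50 and 7.06, then 6.45 and 6.76, without passing the test. Adipocyte markers summed to 3.11 and 2.89, then 28.1 and 56.9, then 11.3 and 10.4, and 4 of 5 measured markers rose with differentiation, among them Fabp4 by 4.38 (limma adjusted p = 0.00131). With cabozantinib the adipsin gene Cfd fell by 3.67 (limma adjusted p = 0.0473) and the endothelial cadherin gene Cdh5 by 2.40 (limma adjusted p = 0.0473), and both calls were lost when any 1 of the differentiated or cabozantinib arrays was left out. Of the cartilage markers, 3 of 6 rose with differentiation, Col9a1 by 2.34 (limma adjusted p = 0.0157), Col10a1 by 2.68 (limma adjusted p = 0.00818) and Matn3 by at least 76.06-fold (limma adjusted p = 0.000238). Cd3e, a T-cell receptor subunit gene, read -1.14 and -1.77 undifferentiated, -1.44 and -1.23 differentiated, and -2.435 and -2.185 with cabozantinib. Its cabozantinib difference was -0.98 without overlap (limma adjusted p = 0.293). No lymphocyte marker was called with differentiation or with cabozantinib against differentiated PMOs. Cd68 had no probe named here. In these bulk samples, fewer cells of a type and less RNA per cell cannot be told apart.

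**Figure D1:**
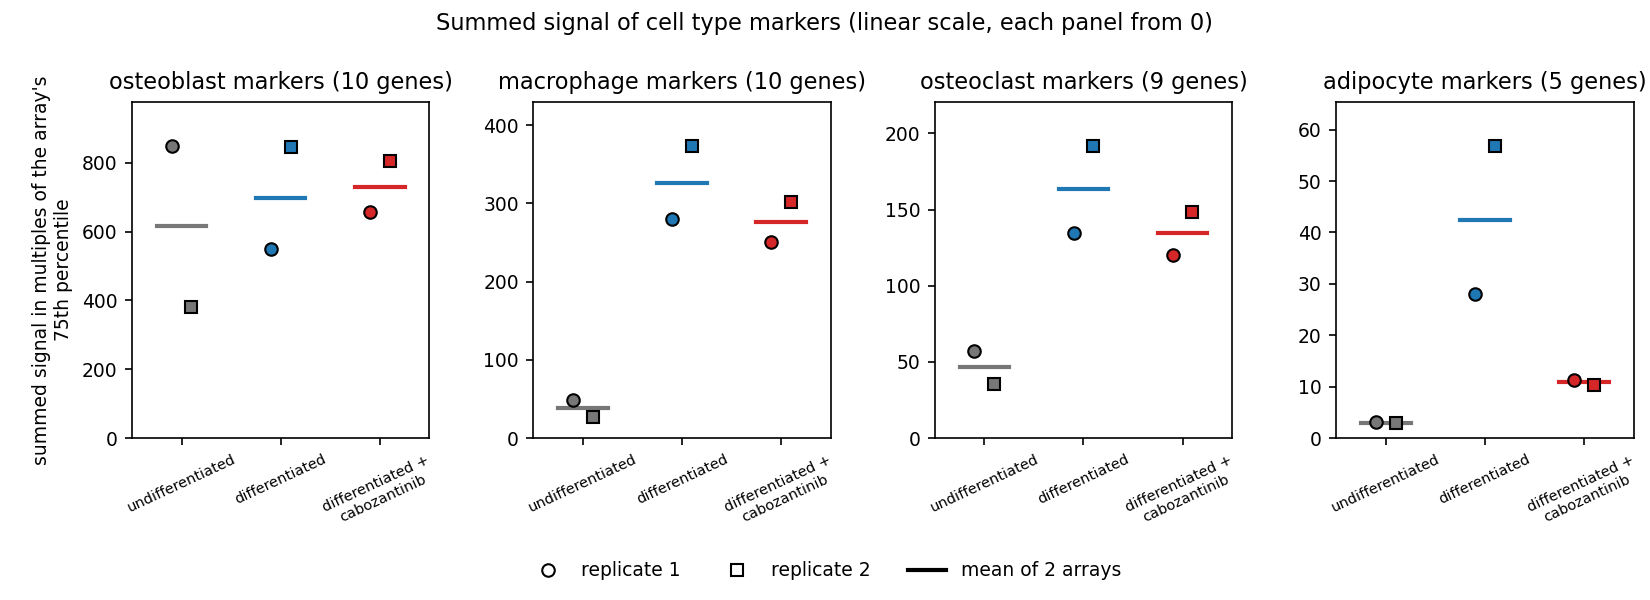
Summed signal of the measured markers of 4 cell types on each array, in multiples of the array's 75th percentile on a linear scale from 0; points are arrays and bars are means of 2 arrays. Macrophage markers sum to 48.8 and 27.1 on the undifferentiated arrays and to 250 or more on the other 4, while the osteoblast sums of the 3 groups overlap.

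None of the 5 members passed an adjusted p of 0.05 in either comparison by limma with the replicate number as a block. Of all 23082 genes tested, 9.70% passed with differentiation (5.26% higher and 4.44% lower) and 2.67% with cabozantinib (0.121% higher and 2.55% lower). At an unadjusted p under 0.05, 2 members passed with differentiation, Tnfsf11 and Csf1, against 20.2% of all genes, and 1 with cabozantinib, Il34, against 23.4% of all genes. The groups of arrays did not overlap for 2 members with differentiation, both lower, where 45.3% of all genes did not overlap (25.9% higher and 19.4% lower). With cabozantinib they did not overlap for 3 members, against 57.5% of all genes. Il34 and Csf1 (at its brightest probe alone) were higher, as were 13.4% of all genes, and Tnfrsf11a was lower, as were 44.1%. Without the replicate block 1 member passed with differentiation (Csf1) and 1 with cabozantinib (Il34), against 13.4% and 12.8% of all genes. The median gene differed by 0.11 with differentiation and by -0.29 with cabozantinib, and by 0.10 and -0.08 after quantile normalization, so a cabozantinib difference near -0.29 is that of the array as a whole. The comparisons share the differentiated arrays, so their values are not independent. Between cabozantinib-treated and undifferentiated PMOs, which shares arrays with both, no member passed, against 13.4% of all genes (4.68% higher and 8.72% lower). Without the block Tnfsf11 and Il34 passed, against 24.1% of all genes. At an unadjusted p under 0.05 the same 2 members passed, against 31.5% of all genes. The groups did not overlap for 4 members, against 63.3% of all genes. Tnfsf11, Tnfrsf11a and Csf1 (at its brightest probe alone) were lower, as were 43.6%, and Il34 was higher, as were 19.7%. Macrophage and adipocyte signal moved with differentiation beside the members, as given above. The adipocyte sum also moved with cabozantinib, from 28.1 and 56.9 to 11.3 and 10.4 without overlap, beside the Il34 and Tnfrsf11a differences. So did the endothelial sum, from 0.63 and 0.62 to 0.38 and 0.43, also without overlap. The 6 tested lymphocyte markers all read lower with cabozantinib, with a median of -1.41 against -0.29 for all genes. The part of these cells in the member values was not tested.

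**Figure D2:**
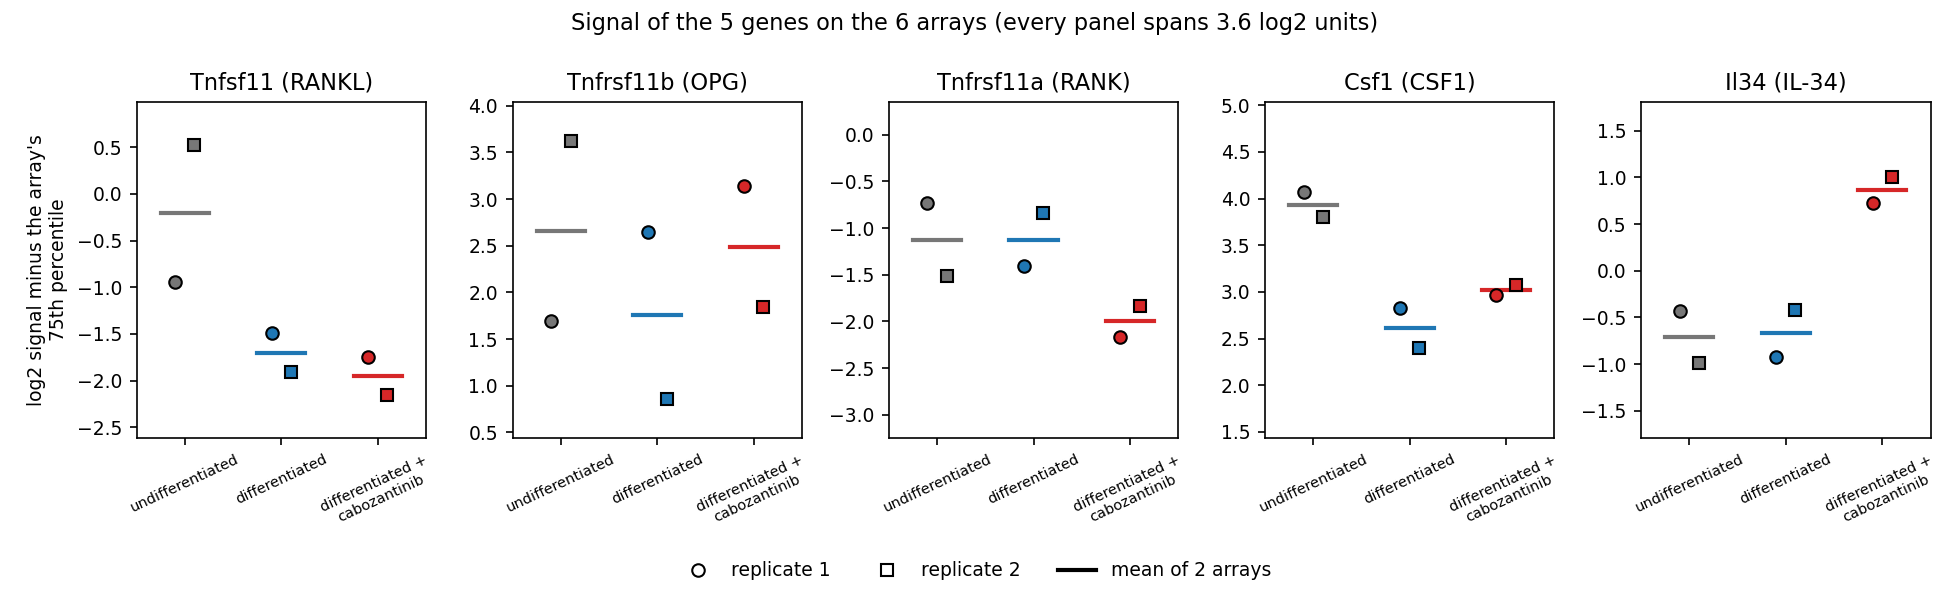
Log2 signal of the brightest probe of each gene, minus the array's 75th percentile, in the 3 groups; points are arrays, bars are means of 2 arrays, and every panel spans 3.6 log2 units. Tnfsf11 and Csf1 read lower on both differentiated arrays than on both undifferentiated ones, Il34 reads higher on both cabozantinib arrays than on the other 4, and Tnfrsf11b spreads by more than 1 log2 unit within every group.

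RANKL read lower on both differentiated arrays than on both undifferentiated ones, without passing the adjusted threshold. The size of the difference depended on the undifferentiated array. Tnfsf11 read -0.94 and 0.53 on undifferentiated replicates 1 and 2, -1.49 and -1.91 on the differentiated ones, and -1.75 and -2.16 on the cabozantinib ones. Both undifferentiated arrays lay above the other 4, and the differentiated and cabozantinib arrays overlapped. The difference with differentiation was -1.49 (SE 0.59, 95% interval -2.82 to -0.16), or 2.82-fold lower, with a limma adjusted p of 0.174. Between arrays with replicate number 1 it was -0.55, and between those with number 2 it was -2.44. Without the replicate block, on all arrays, the limma adjusted p of this difference was 0.114. Undifferentiated replicate 1 carried the smaller gap. In fits that also dropped the block, the difference was -2.23 without that array and -0.76 without undifferentiated replicate 2. With cabozantinib the difference was -0.25 (SE 0.59, 95% interval -1.58 to 1.08, limma adjusted p = 0.909). Relative to the median gene this was 0.03, and the interval reaches past a 2-fold change in both directions, so neither a change nor its absence was shown at 2 arrays a group. Cabozantinib-treated PMOs lay below undifferentiated PMOs by 1.75 (limma adjusted p = 0.0777, 0.0487 without the replicate block).

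The promoters of Tnfsf11 and Csf1 are printed because both genes read lower on both differentiated arrays than on both undifferentiated ones. Each is the 250 bases before the annotated start, 5′ to 3′ on the gene's strand, from RefSeq on build GRCm38.p6. The table holds promoters of 3 of the 5 members, those of Tnfsf11, Tnfrsf11a and Csf1. Tnfsf11 lies at chr14:78308044-78308293 on the minus strand and Csf1 at chr3:107760470-107760719 on the minus strand. Capitals mark the letters TATAA on the gene's strand.
Tnfsf11: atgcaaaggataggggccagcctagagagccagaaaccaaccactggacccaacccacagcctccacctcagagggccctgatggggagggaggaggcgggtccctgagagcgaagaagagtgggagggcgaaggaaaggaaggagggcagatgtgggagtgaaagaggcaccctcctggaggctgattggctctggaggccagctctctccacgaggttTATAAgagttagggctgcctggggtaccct
Csf1: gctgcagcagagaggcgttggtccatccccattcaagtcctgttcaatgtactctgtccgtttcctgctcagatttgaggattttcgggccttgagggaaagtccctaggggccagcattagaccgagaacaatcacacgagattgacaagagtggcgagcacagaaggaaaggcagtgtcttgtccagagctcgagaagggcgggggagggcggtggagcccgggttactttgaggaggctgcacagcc
TATAA begins 30 bases before the start of Tnfsf11, and on that strand 16% of 32851 mouse promoters of this length hold it. The Csf1 stretch does not hold TATAA on either strand, where 22.8% of promoters do. Neither stretch holds TGANTCA, the AP-1 letters (6.75% of promoters), AGGTCA, a vitamin D receptor half-site (14.0%), or TGTGGT, the RUNX letters (14.1%), on either strand. Both hold the NF-kB letters, searched as GGG and CC with any 5 bases between them on either strand, as do 45.8% of promoters. In Csf1 the gene-strand match is GGGAAAGTCC, whose first base lies 155 bases before the start, and it overlaps a match on the other strand. These matches are letters in a window, and no binding was measured.

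OPG varied more between replicates than between groups. Tnfrsf11b read 1.69 and 3.62 undifferentiated, 2.64 and 0.86 differentiated, and, with cabozantinib, 3.14 and 1.85. All 3 groups overlapped. The gaps between replicates were 1.93, 1.78 and 1.29, larger than those of 97.5%, 97.6% and 95.6% of all genes in the same group, where the median gaps were 0.67, 0.47 and 0.32. In each group the array with the higher OPG signal was also the array with the higher 75th percentile. These were undifferentiated replicate 2, differentiated replicate 1 and cabozantinib replicate 1. Tnfsf11 had the same order in each group, Tnfrsf11a and Il34 had the opposite order, and the brightest Csf1 probe was mixed. The part of this in the result was not tested. The difference was -0.90 with differentiation (SE 0.81, 95% interval -2.71 to 0.90, limma adjusted p = 0.669) and 0.74 with cabozantinib (SE 0.81, 95% interval -1.06 to 2.54, limma adjusted p = 0.714). With differentiation the arrays numbered 1 differed by 0.95 and those numbered 2 by -2.76. Without undifferentiated replicate 2 the differentiation value turned to 0.06, and without differentiated replicate 2 the cabozantinib value turned to -0.15.

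The balance of RANKL to OPG was read within each array, as log2 Tnfsf11 minus log2 Tnfrsf11b, which a single scaling factor per array cannot move. It was -2.63 and -3.09 in undifferentiated PMOs, -4.13 and -2.77 in differentiated PMOs and -4.88 and -4.01 with cabozantinib. Group means were -2.86 ± 0.32, -3.45 ± 0.96 and -4.44 ± 0.62 (SD, n = 2 arrays each), and neighbouring groups overlapped. The change was -0.59 with differentiation and -0.99 with cabozantinib, each with an exact two-sided permutation p of 0.667. After quantile normalization these changes were -0.42 and -0.87. The smallest p that 2 against 2 arrays can give is 0.333, so this design cannot reach 0.05. The differentiation change rested on differentiated replicate 1, and without that array it was 0.09. The cabozantinib change was -1.67 without differentiated replicate 1 and -0.31 without differentiated replicate 2. Cabozantinib arrays lay below both undifferentiated arrays by 1.58 on average (exact permutation p = 0.333, the smallest possible). Across the 6 arrays the signals of Tnfsf11 and Tnfrsf11b had a Pearson r of 0.60, given as a description of arrays in 3 groups that share their scaling.

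**Figure D3:**
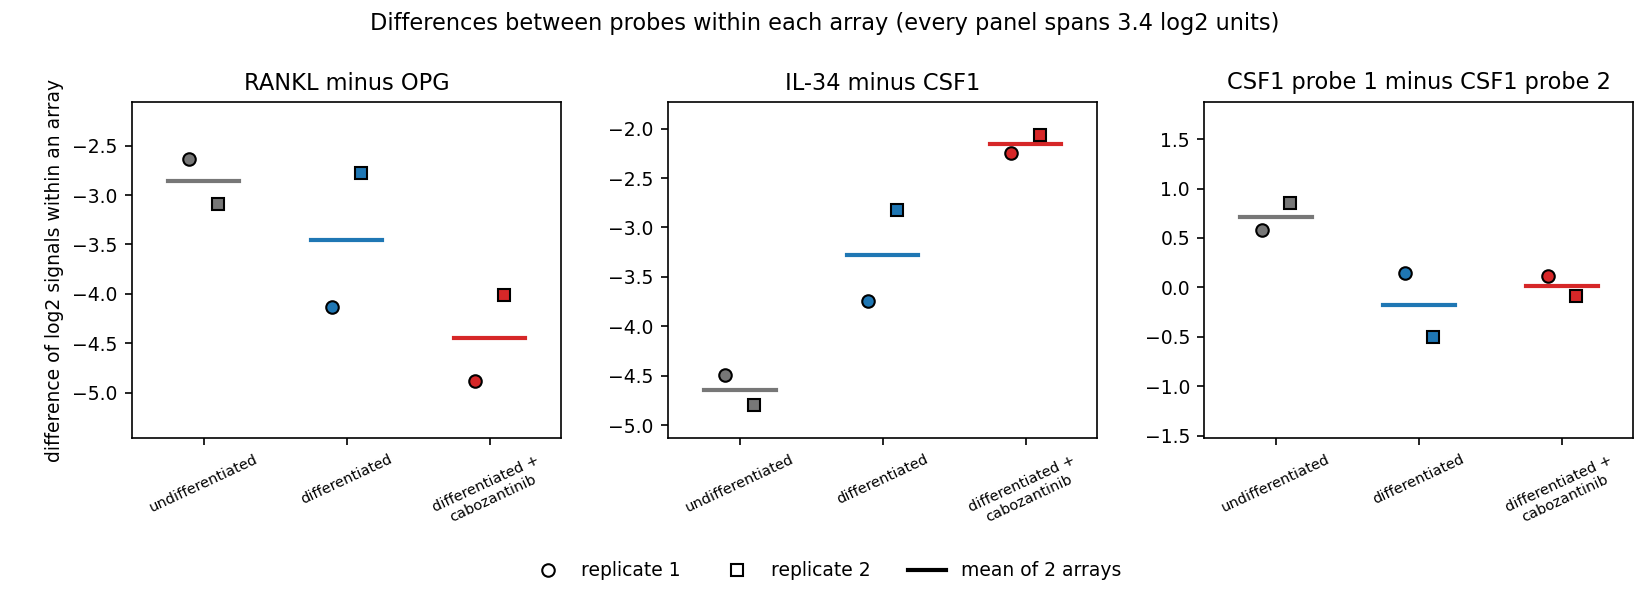
Differences between the log2 signals of 2 probes within each array, for RANKL minus OPG, IL-34 minus CSF1 and the brightest minus the second Csf1 probe; points are arrays, bars are means of 2 arrays, and every panel spans 3.4 log2 units. RANKL minus OPG overlaps between neighbouring groups, and IL-34 minus CSF1 steps up from -4.64 to -3.28 and -2.16 with no overlap.

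RANK, the receptor of RANKL on osteoclast precursors, showed no difference with differentiation that 2 arrays a group could detect. Tnfrsf11a read -0.74 and -1.51 undifferentiated, -1.41 and -0.84 differentiated, and -2.16 and -1.83 with cabozantinib. The undifferentiated and differentiated arrays overlapped, and both cabozantinib arrays lay below the other 4. The difference was 0.00 with differentiation (SE 0.53, 95% interval -1.19 to 1.19) and -0.87 with cabozantinib (SE 0.53, 95% interval -2.07 to 0.32, limma adjusted p = 0.391). Relative to the median gene the cabozantinib difference was -0.59, and after quantile normalization it was -0.72 on its own scale.

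CSF1 read lower on both differentiated arrays than on both undifferentiated ones at its brightest probe, without passing in the blocked fit. The other probes differed by less. The brightest Csf1 probe, printed as 10 spots on each array, read 4.07 and 3.80 undifferentiated, 2.82 and 2.40 differentiated, and 2.97 and 3.07 with cabozantinib. Both undifferentiated arrays lay above the other 4, and both cabozantinib arrays lay just above both differentiated ones. The SD between spots of an array, a technical spread alone, was 0.03 to 0.07. The gaps between replicates were 0.26, 0.42 and 0.10. The difference with differentiation was -1.32 (SE 0.49, 95% interval -2.41 to -0.23), or 2.499-fold lower, with a limma adjusted p of 0.140, and of 0.0456 without the replicate block. The drop was -1.24 between arrays numbered 1 and -1.40 between those numbered 2. With cabozantinib the difference was 0.41 (SE 0.49, 95% interval -0.68 to 1.5, limma adjusted p = 0.752). The second probe, designed to another Csf1 transcript, read 3.49 and 2.95, then 2.67 and 2.90, then 2.86 and 3.16, and the third read 2.76 and 2.35, then 1.96 and 2.19, then 2.11 and 2.43. At these probes the differentiation difference was -0.43 (limma adjusted p = 0.786) and -0.48 (limma adjusted p = 0.742). The cabozantinib difference there was 0.22 and 0.19, with overlapping groups. Their cabozantinib and undifferentiated arrays overlapped too. Within an array, the brightest minus the second probe moved from 0.58 and 0.85 to 0.15 and -0.50 with differentiation, a change of -0.89 with no overlap (exact permutation p = 0.333, the smallest possible). The 3 probes shared their direction, and the size depended on the probe. After quantile normalization the 3 differentiation values were -1.46, -0.61 and -0.64.

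IL-34, the other CSF1R ligand, had the largest difference of the 5 members with cabozantinib. Il34 read -0.43 and -0.99 undifferentiated, -0.92 and -0.42 differentiated, and 0.73 and 1.005 with cabozantinib. The first 2 groups overlapped, and both cabozantinib arrays lay above the other 4. With differentiation the difference was 0.04 (SE 0.51, 95% interval -1.11 to 1.19, limma adjusted p = 0.991). With cabozantinib it was 1.53 (SE 0.51, 95% interval 0.38 to 2.68), or 2.89-fold higher, with a limma adjusted p of 0.111. It was 1.65 between arrays numbered 1 and 1.42 between those numbered 2, and 98.3% of all genes had a lower value in this comparison. Il34 passed the threshold without the replicate block (limma adjusted p = 0.0443) and with the 4 compared arrays alone (0.0300). Over all alternatives its limma adjusted p ranged from 0.00647 to 1. Against undifferentiated PMOs the cabozantinib group was higher by 1.57 (limma adjusted p = 0.0689). The value was 1.51 after quantile normalization and ranged from 1.28 to 1.79 over all alternatives.

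The 2 CSF1R ligands were also set against each other within arrays. Log2 Il34 minus log2 Csf1 at its brightest probe was -4.49 and -4.79 in undifferentiated PMOs, -3.74 and -2.82 in differentiated PMOs and -2.25 and -2.07 with cabozantinib. No neighbouring groups overlapped. The change was 1.36 with differentiation, in which Csf1 had the larger difference, and 1.13 with cabozantinib, in which Il34 had it. Against the other Csf1 probes the change was 0.47 and 0.52 with differentiation, so its size depended on the probe, and 1.31 and 1.34 with cabozantinib, with no overlap on this scale. With normexp background correction the differentiation change against the second probe was 0.26 and its groups overlapped (exact permutation p = 0.667). On the 75th-percentile scale each of these changes has an exact permutation p of 0.333, the smallest that 2 against 2 arrays can give. Log2 Tnfsf11 minus log2 Csf1 was -5.01 and -3.28, then -4.31 and -4.32, then -4.72 and -5.23. The change of -0.17 with differentiation lay within the spread of the undifferentiated arrays, and the value was lower by 0.66 with cabozantinib without overlap (exact permutation p = 0.333).

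**Figure D4:**
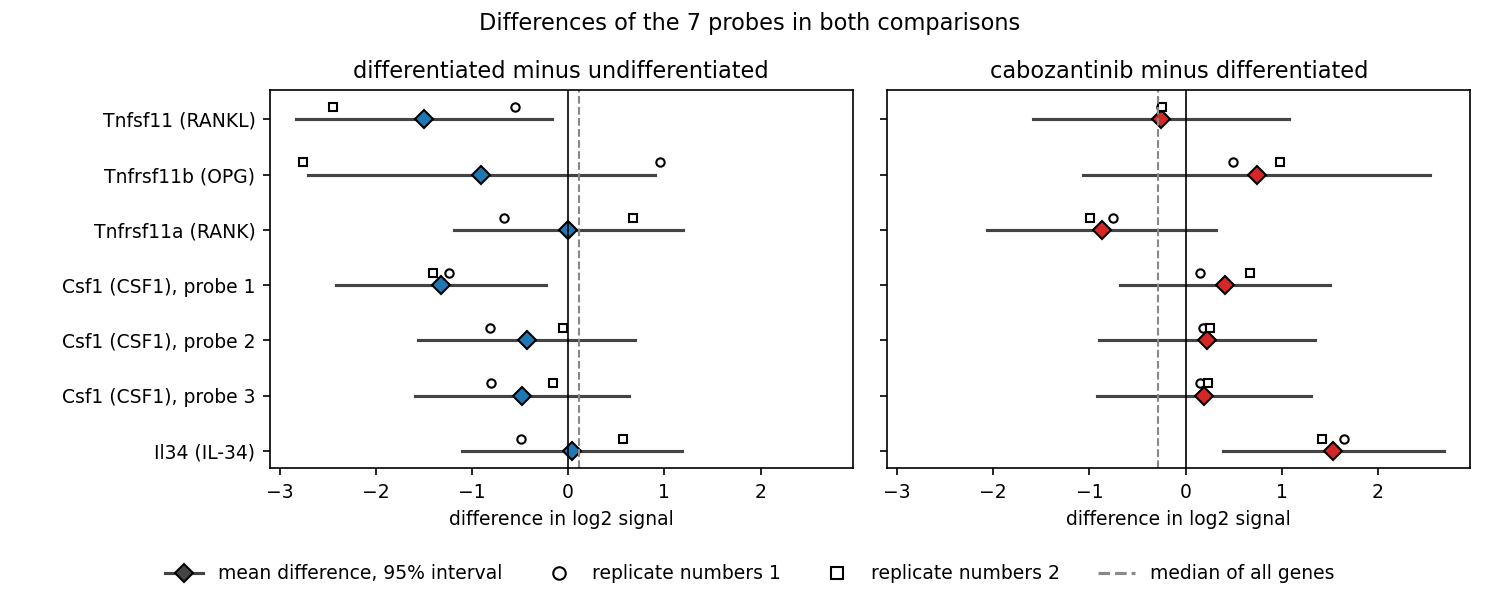
Differences in log2 signal of the 7 probes, differentiated minus undifferentiated (left) and cabozantinib minus differentiated (right); diamonds are means with 95% intervals from limma, open circles and squares are the arrays numbered 1 and 2, and the dashed line is the median of all genes. The intervals of Tnfsf11 and of the brightest Csf1 probe lie below 0 on the left and that of Il34 lies above 0 on the right, without passing the adjusted threshold.

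The genes whose pattern over the 6 arrays was most like each member were looked for among the named genes whose group means span at least 1 log2 unit, about 8051 candidates a member. These correlations describe arrays in 3 groups and have no test. For Tnfsf11 they were Slc39a14, a zinc transporter gene (Pearson r = 0.992), Tmtc2 (0.987) and Smad7, an inhibitor of TGF-beta signaling (0.985). For Tnfrsf11b they were Ubr1, a ubiquitin ligase (0.997), Stx6, a vesicle syntaxin (0.991), and Atrx, a chromatin remodeler (0.990). Ubr1 read -3.86 and -0.70, then -2.49 and -5.23, then -1.31 and -3.43, so it was high and low on the same replicates as OPG, though not well above background on differentiated replicate 2. For Tnfrsf11a they were Tnf (0.999), the transcription factor gene Lhx9 (0.998) and the kinase gene Brsk2 (0.997), and the probes of the last 2 were not well above background on cabozantinib replicate 1. Tnf, the cytokine that acts beside RANKL on osteoclast precursors, was dim: it read -3.94 and -4.90, then -4.80 and -4.05, and was not well above background on either cabozantinib array, so its r with Tnfrsf11a rests in part on values that are not measured levels. For Csf1 they were Ddx27, an RNA helicase (0.997), Nudt8 (0.996) and Eif6, a ribosome assembly factor (0.995). For Il34 they were Raver2, an RNA-binding protein gene (0.994), Sh3bgr (0.990) and Gm10494 (0.990). The Gm10494 probe was well above background on the cabozantinib arrays alone, so its values on the other 4 arrays are not measured levels. Raver2 read 0.64 and 0.20, then 0.38 and 0.90, then 1.93 and 2.26.

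Around the members, 7 lists of related genes were read in both comparisons. Of the TNF superfamily relatives, 19 of 27 were tested, and 3 rose and 1 fell with differentiation (median 0.27, against 0.11 for all genes). Tnfsf10, which encodes the death ligand TRAIL, also a ligand of OPG, read -6.79 and -6.11 undifferentiated, the first not well above background, and -2.51 and -1.90 differentiated. It rose by 4.24 (SE 0.48, limma adjusted p = 0.000934) and read -3.92 and -3.06 with cabozantinib. The TNF receptor gene Tnfrsf1b rose by 2.64 (limma adjusted p = 0.00806) and Tnfsf18, the ligand GITRL, by 2.04 (limma adjusted p = 0.0301, lost without differentiated replicate 1, and with a probe not well above background on undifferentiated replicate 1). Tnfrsf12a, the receptor of TWEAK, fell by 3.37 (limma adjusted p = 0.00567). With cabozantinib none of the 19 passed, and the highest and lowest measured were Tnfrsf19 at 0.88 and Tnfrsf21 at -1.34. After quantile normalization these 2 values were 0.92 and -0.69.

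In the signaling pathway below RANK, none of the 22 tested of 26 genes passed in either comparison, with medians of -0.13 with differentiation and -0.015 with cabozantinib. Fos, a partner in AP-1, was the highest with differentiation at 1.47 (limma adjusted p = 0.0975) and Nfkb2, the NF-kB subunit p100, the lowest at -2.00 (limma adjusted p = 0.0529). With cabozantinib the highest was the kinase gene Ikbkb at 0.86 and the lowest the adaptor gene Traf1 at -0.92. Traf6, the adaptor that RANK recruits, read -3.73 and -1.57, then -2.74 and -4.42, then -2.49 and -3.06, and its groups overlapped. Nfatc1, the transcription factor of osteoclast formation, read -3.76 and -1.75, then -2.35 and -3.31, then -2.34 and -3.84, also with overlap. The probe for Lgr4, another receptor of RANKL, was well above background on 1 array and was not tested.

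In the CSF1 receptor axis 13 of 18 genes were tested. With differentiation 5 rose, 2 fell and 6 did not pass, with a median of 1.45 against 0.11 for all genes. Csf1r read 5.02 and 3.58 undifferentiated, 6.74 and 7.54 differentiated and 6.67 and 7.26 with cabozantinib. It rose by 2.84 (SE 0.62, limma adjusted p = 0.0183), a call lost without differentiated replicate 2, and differed by -0.17 with cabozantinib (limma adjusted p = 0.947). Csf2rb and Csf2ra, the GM-CSF receptor subunits, rose by 3.08 (limma adjusted p = 0.00394) and 2.96 (limma adjusted p = 0.00907). Inpp5d, the myeloid phosphatase SHIP1, rose by 2.96 (limma adjusted p = 0.00456) and Mitf, a transcription factor gene of osteoclasts, by 2.38 (limma adjusted p = 0.0127). These genes moved with the macrophage markers, of which 5 of 10 rose, Csf1r itself among them, and whose summed signal is given above, and the part of macrophage-lineage cells in the result was not tested. Sdc1, the heparan sulfate proteoglycan syndecan-1, fell by 2.92 (limma adjusted p = 0.00765), and Pik3r1, a PI3-kinase subunit gene, fell by at least 3.71-fold, since it was not well above background on the differentiated arrays (limma adjusted p = 0.0241, lost without differentiated replicate 2). With cabozantinib none of the 13 passed, and Sdc1 was the highest at 1.75 (limma adjusted p = 0.0889, 0.0401 without the replicate block) and the adaptor gene Grb2 the lowest measured on both sides at -0.88. Kitl, which encodes stem cell factor, was at least 3.68-fold lower, as its probe was not well above background on the cabozantinib arrays (limma adjusted p = 0.0729).

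**Figure D5:**
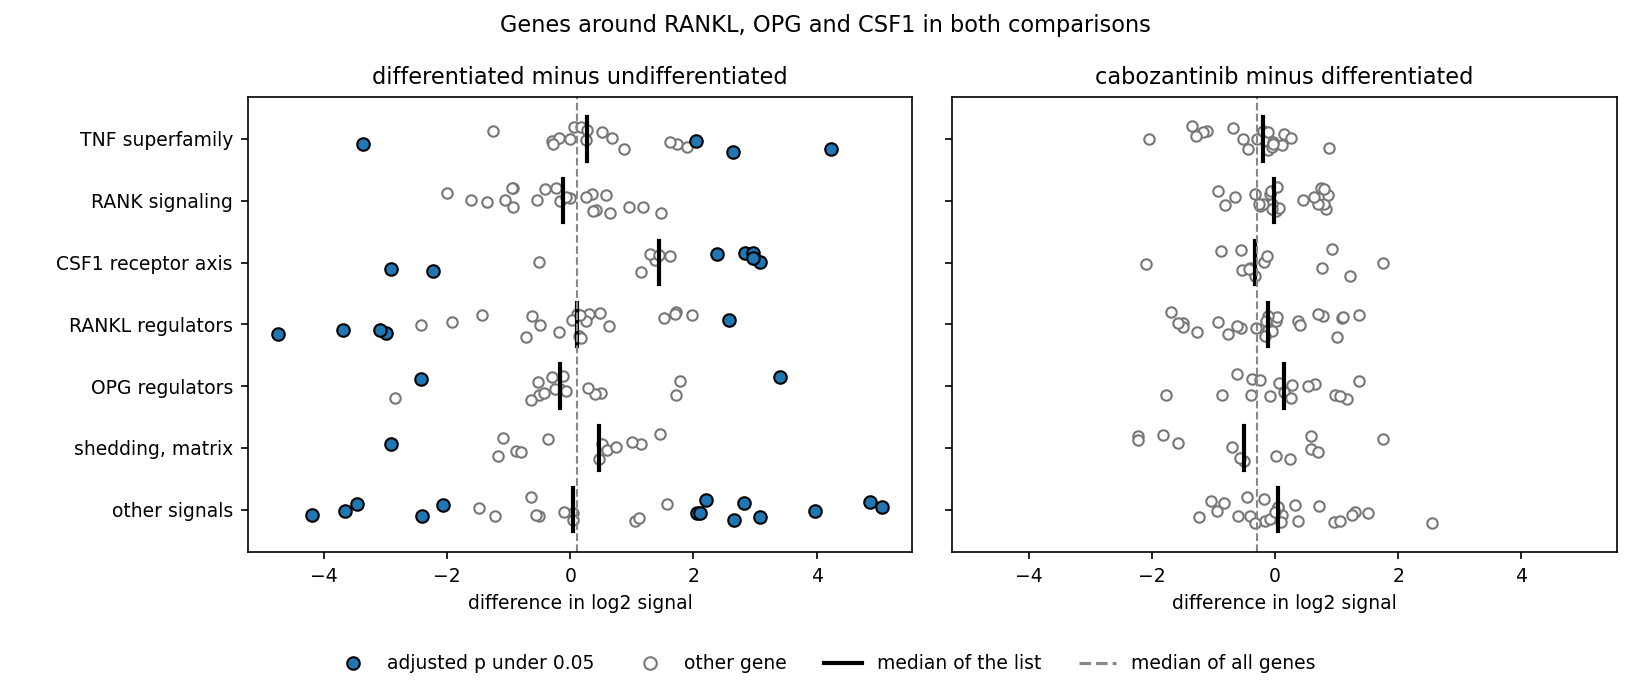
Difference in log2 signal of every tested gene of the 7 lists, differentiated minus undifferentiated (left) and cabozantinib minus differentiated (right); filled points passed an adjusted p of 0.05, black bars are list medians and the dashed line is the median of all genes, with probes below background drawn at their fitted value. The CSF1 receptor axis has its median at 1.45 on the left, and no point is filled on the right.

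Of the genes that regulate RANKL in osteoblasts, 25 of 29 were tested. With differentiation 4 fell and 1 rose, while the list's median of 0.12 was that of all genes, 0.11. Ptgs2, the inducible prostaglandin synthase, fell by 4.75 (SE 0.78, limma adjusted p = 0.00447), and read 0.21 and 1.73 undifferentiated and -2.72 and -4.85 differentiated. Il6 fell by 3.69 (limma adjusted p = 0.00435), its receptor subunit gene Il6st by 3.10 (limma adjusted p = 0.00414), and Vdr, the vitamin D receptor, fell by 2.995 (limma adjusted p = 0.00423). Vdr read 0.49 and 0.61 undifferentiated, -2.52 and -2.37 differentiated and -1.22 and -0.94 with cabozantinib. Il6ra, the other IL-6 receptor subunit, rose by 2.58 (limma adjusted p = 0.0245, lost without undifferentiated or differentiated replicate 2). Pth1r read 2.24 and 1.82, then 0.28 and 0.92, then 1.29 and 1.49, with a limma adjusted p of 0.125 for differentiation. With cabozantinib none of the 25 passed. Vdr was the highest at 1.36 (limma adjusted p = 0.126, 0.0415 without the replicate block) and Cyp27b1, the enzyme that activates vitamin D, the lowest at -1.69 (limma adjusted p = 0.0768). After quantile normalization Vdr differed by 1.515 and Cyp27b1 by -1.04.

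Of the regulators of OPG, 17 of 20 were tested, with 1 rise and 1 fall with differentiation and a median of -0.17. Dkk1, a secreted Wnt inhibitor, rose by 3.402 (SE 0.51, limma adjusted p = 0.00313, with a probe not well above background on undifferentiated replicate 1), and Tcf7, a transcription factor of Wnt signaling, fell by 2.43 (limma adjusted p = 0.0234, lost without differentiated replicate 2, on which its probe was not well above background). With cabozantinib none passed, and the median was 0.15 against -0.29 for all genes. Wnt16, a Wnt ligand that raises OPG in osteoblasts, was the highest at 1.36 (limma adjusted p = 0.134, 0.0482 without the replicate block). It read -4.24 and -4.04, then -4.27 and -4.60, then -2.87 and -3.29, with both cabozantinib arrays above the other 4. Wnt5a, a ligand of noncanonical Wnt signaling, was the lowest at -1.77 (limma adjusted p = 0.0717). Among 13 genes for shedding and for matrix partners, only Sdc1 passed with differentiation and none with cabozantinib. The sheddase genes Adam10 and Adam17 differed by 0.47 and 1.16 with differentiation and by 0.02 and -0.70 with cabozantinib. Mmp14, which also sheds RANKL, read -3.71 and -3.88 in differentiated PMOs and was not well above background on either cabozantinib array, at least 3.09-fold lower (limma adjusted p = 0.0525). Mmp3, a stromelysin gene, was the lowest measured at -1.83 (limma adjusted p = 0.0664).

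Other signals from osteoblasts to osteoclasts had 9 rises and 5 falls among 25 tested of 26 genes with differentiation, with a median of 0.05. Several of these calls, those of Ibsp and Spp1 among them, were lost without differentiated replicate 2. The highest were Bglap2, the chemokine gene Ccl8 at 4.86 (SE 0.49, limma adjusted p = 0.000522) and Cd200, a surface ligand of myeloid cells, at 3.98 (limma adjusted p = 0.0015). The lowest were Saa3, an acute-phase protein gene, at -4.19 (SE 0.64, limma adjusted p = 0.00335), Spp1 at -3.67 (limma adjusted p = 0.0317) and Lgals9, a galectin gene, at -3.46 (limma adjusted p = 0.00586). Spp1 read 3.64 and 5.31, then 1.20 and 0.41, then 2.71 and -0.46, and its call was lost without the replicate block and without 3 of the 6 arrays in turn. With cabozantinib none passed. Lgals9 was the highest at 2.55 (limma adjusted p = 0.0523, 0.0297 without the replicate block), reading -3.90 and -4.56 in differentiated PMOs and -1.18 and -2.18 with cabozantinib, and Cd200 was the lowest at -1.23. Of all 7 lists, no gene passed with cabozantinib in the blocked fit, where 2.67% of all genes did.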

How the data were processed

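RNA was labeled with 1 dye (Cy3) and hybridized by the authors to Agilent whole-genome arrays. The deposited intensity values came from Feature Extraction 11.0.1.1, which subtracts local background. A deposited table of normalized log2 values served as an alternative: its columns correlated with the log2 scanner signals at r of 0.998 or more. The files name probes by RefSeq accession, and 69.1% of 39429 probes were named through RefSeq. Outlier spots were left out, spots of a probe averaged, and log2 processed signals centered on each array's 75th percentile. Probes well above background on at least 2 arrays (27232) were fitted in limma 3.58.1 (R 4.3.3) on all 6 arrays, with group and replicate number, since the study's methods name a paired test. P-values were adjusted by Benjamini-Hochberg over these probes. A gene was read at its brightest tested probe (23082 genes, unnamed probes counted singly). Bounds for dim probes used the lowest signal among an array's spots well above background. The fit was tested on simulated data. The normexp alternative used the median spot signal, as no mean signal was in the files used here. Fits that left out 1 array in turn used no replicate block. Precision is limited by 2 arrays a group. Named genes were the members, at most 3 called genes in each direction of a list and comparison, the highest and lowest measured where none passed, and a fixed set of receptors, regulators and markers. The members and lists were chosen with earlier results of these data known.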

Additional observations from a re-analysis of the deposited data

How the results depend on the processing

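The count of members called, 0 in all 3 comparisons by limma with the replicate block, depended on that block. With no replicate block it was 1 with differentiation (Csf1), 1 with cabozantinib (Il34) and 2 for cabozantinib against undifferentiated PMOs (Tnfsf11 and Il34), and the genes called in all were 3095, 2948 and 5571 in place of 2240, 616 and 3093. The numbers were not shown to pair the arrays, since the differences between replicates correlated at -0.51, -0.53 and 0.26 between the groups. After exchange of the undifferentiated numbers, the members called were 2, 2 and 4 and the genes called 6025, 7064 and 10300. The fit of the 4 compared arrays called 1 member with cabozantinib (Il34) and 5539 genes, and the variance trend with robust settings called 2 members and 3528 genes against undifferentiated PMOs. Leaving out each array gave 0 to 1 members with differentiation (1577 to 3519 genes), 0 to 1 with cabozantinib (0 to 4804 genes) and 0 to 2 against undifferentiated PMOs (1852 to 6737 genes). Quantile normalization and the authors' values called 2019 and 2038 genes with differentiation, 0 and 0 with cabozantinib (unadjusted p under 0.05 in the main fit: 5401) and 1316 and 1301 against undifferentiated PMOs; normexp called 856, 1 and 582, no filter on dim probes 1403, 0 and 1169, and the filter on all 6 arrays 1857, 2 and 1349. The mean of a gene's probes called 1113 genes with cabozantinib. The methods' t-test at an unadjusted p under 0.05 and over 2-fold passed 857 genes with differentiation and 2328 with cabozantinib in its paired form and 2652 and 3784 unpaired, with 1 member in each, and 0 genes in these comparisons after Benjamini-Hochberg. Directions turned for values near 0 with normexp (Tnfrsf11a -0.0268 and Il34 -0.00971 with differentiation). Leaving out each array gave, with differentiation, -1.87 to 0.0594 for Tnfrsf11b, -0.39 to 0.39 for Tnfrsf11a (also -0.28) and -0.24 to 0.32 for Il34 (also -0.21). It gave -0.15 to 1.63 for Tnfrsf11b with cabozantinib, and -1.13 to 0.80 (also 0.48) against undifferentiated PMOs. The RANKL to OPG change ranged from -1.27 to 0.088 with differentiation and from -1.67 to -0.31 with cabozantinib. All other values of the members at their brightest probe kept their direction, and those that crossed the threshold moved past it. Leaving out arrays, chosen for the lists after seeing the data, gave 0 to 5 called genes a list with cabozantinib. With differentiation, macrophage markers and other osteoblast signals lost calls without differentiated replicate 2. Fits with an array left out also dropped the replicate block, so they differ from the blocked fit in both. The RANKL regulators gained calls with differentiation when the block was dropped on all 6 arrays (8, against 1 higher and 4 lower with the block). Leaving out a cabozantinib array as well added none. The causes were not tested.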
